A study of Mus musculus with 18 samples.

Results

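The nephron progenitor genes are a set of known markers of the cap mesenchyme: Six2, Cited1, Gdnf, Uncx, Eya1, Sall1, Osr1, Meox1 and Crym. All probes annotated to these 9 genes were taken, which gave 14 of the 46630 probes measured, for 8 of the 17711 genes that the annotation names. No probe in the annotation used here carries the name Six2, and no value is given for it. They were followed in kidneys of male mice of the outbred CD1 stock from birth (P0) through every other day to P10, and at P20, P30 and P90. Cortex and medulla were dissected apart, and each region gave, per age, 1 Illumina bead array of RNA pooled from 4 animals, so that the 18 arrays fell into 9 ages by 2 regions. The labels name no treatment or genetic change, and the strain and sex were shared by all groups. Pooling leaves no measure of the spread between animals, and neighbouring ages served as replicates of a window of age. The p-values of the age changes below thus measure the spread between arrays within a window. Those between regions, with age as a block, measure how the gap between regions varied over ages. That is within a window or, for the test over all ages, over all 9 ages. None of these p-values holds a repeat of an age.

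Nephron progenitors are mesenchymal cells that cap the tips of the branching ureteric bud at the outer rim of the kidney. The cap cells secrete GDNF, which drives branching through the receptor Ret and the co-receptor Gfra1 on the tip, and the tip returns Wnt signals under which some cap cells condense, become epithelial and form new nephrons. In the mouse the cap is used up within days of birth, after which no new nephrons are known to form. The question addressed is when each gene's signal left the cortex, and whether the medulla, which lies away from the cap, showed the same course.

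Values are normalized log2 intensities. A probe was tested if its reading exceeded the 75th percentile of the array on 2 or more of the 18 arrays. That level ran from 8.28 to 8.37, and 14866 probes passed. Of the 14 probes of the progenitor genes, 7 passed: 1 of the 2 Gdnf probes, both Uncx probes, both Sall1 probes, Meox1 and Crym. Another 5 were above the level on no array and 2, Cited1 and 1 of the 4 Eya1 probes, only in the P0 cortex. A probe that passed only through its high arrays had to differ between arrays, so the counts below are descriptions of the 7 probes and not of all members. As a scale for these values, the 29588 probes of the whole table that were above the level on no array had a median SD of 0.0978 over the 18 arrays.

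The regions were checked with markers that belong to neither the members nor their partners. Of 9 probes for medullary genes such as Umod and Aqp2, all 9 were higher in medulla over all ages, where 11.2% of all tested probes were, and 8 at P0 and P2, where 5.51% were. Of 8 probes for glomerular and convoluted tubule genes, 6 were lower in medulla over all ages, where 10.7% of all tested probes were. At P0 and P2, where 6.55% of all tested probes were lower, 0 of the 8 were, and their median of medulla minus cortex was 0.10. These cortical genes thus did not separate the regions at P0 and P2. Of the neighbouring tissues, 0 of 3 skeletal muscle probes and 2 of 7 adrenal probes were above the level on any array. Both blood probes were above it on all 18 arrays, and 0 of 2 were called in the early changes or between regions. Of 4 liver probes 3, for Apoa2 and Ttr, were above the level on some arrays, while Alb was under it on all 18. At P0 and P2 1 of those 3, Ttr, was higher in medulla (1.25, SE 0.19, limma adjusted p = 0.00168), and 0 of 3 were called in the early change in cortex (median 0.45). The brown fat gene Ucp1 differed by age: it read 8.0 and 8.32 in cortex at P0 and P2 but 10.12, 10.67, 9.53 and 11.57 at P4, P6, P8 and P10, and 8.05 and 8.07 against 11.90, 9.02, 9.55 and 10.87 in medulla. Of the other 3 brown fat genes, Elovl3 was under the level on all 18 arrays, and Cidea was above it on 3 cortex and 2 medulla arrays, with its highest reading, 9.11, in the P4 medulla. Cox7a1 rose in cortex from P0-P2 to P4-P10 by 0.90 (SE 0.21, limma adjusted p = 0.0104), and stayed high in cortex at P90, at 10.48, while its difference in medulla was -0.24 (adjusted p = 0.859). The mean over the 4 brown fat probes ran from 8.33 to 9.69 in cortex and from 8.44 to 9.63 in medulla. Because of Ucp1, results without P4, P6 and P10 are given where a call is lost. That leaves P8 alone of P4-P10, where Ucp1 also read above P0 and P2 in both regions, so this fit cannot set Ucp1 aside.

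Gdnf encodes the ligand of the cap. Its promoter, shown because Gdnf had the earlier of the 2 times of loss in cortex given below, is taken from RefSeq (GRCm38.p6, chr15:7809798-7810097, plus strand), 250 bases before to 50 bases after the first of 2 listed starts. The capitals mark TATAAA, found at -31 from the start.

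Gdnf: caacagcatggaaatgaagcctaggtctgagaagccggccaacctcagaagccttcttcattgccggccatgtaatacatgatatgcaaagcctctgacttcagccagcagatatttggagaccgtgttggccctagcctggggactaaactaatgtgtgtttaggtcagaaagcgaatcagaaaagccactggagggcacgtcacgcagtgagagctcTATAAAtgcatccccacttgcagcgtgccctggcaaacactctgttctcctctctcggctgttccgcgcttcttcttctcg

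The TATAAA letters were searched on both strands, as were GGGCGG (GC box), CTTTGAA or CTTTGAT (TCF/LEF) and TAATTA (homeodomain core, added after the Uncx sequence had been seen). They are held by 13.6%, 35.7%, 8.65% and 5.29% of the 32841 promoters of this length, in the same order, and no matches overlapped in the promoters printed. A match describes letters and is not evidence of binding.

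In cortex the Gdnf probe ILMN_2659994 read 9.78 at P0, 8.78 at P2, 8.17 at P4, 8.11 at P6, 7.95 at P8, 8.02 at P10, 7.81 at P20, 7.74 at P30 and 7.95 at P90. In medulla it read 8.41 at P0 and between 7.90 and 8.14 at every later age. Cortex was above medulla at P0 and P2 by 1.37 and 0.67, and was above the level at those ages alone. The midpoint between the P0 reading and the mean of P20, P30 and P90, which was 7.83 (SD 0.11, n = 3 ages), was crossed at 1.93 days in cortex by interpolation between the P0 and P2 arrays. The midpoint, 8.805, lay closer to the P2 reading, 8.784, than the median SD of 0.0978 given above, so a crossing before P2 rests on a small gap in 1 array. On the linear intensity scale the crossing came at 1.26 days, and from the mean of P0 and P2 at 2.62 days. The second Gdnf probe, ILMN_2701617, was at or below 8.10 on all 18 arrays and showed no such course.

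From P0-P2 to P4-P10, in cortex Gdnf fell by 1.22 on the log2 scale (SE 0.18, n = 2 against 4 ages, limma adjusted p = 0.000873). All 4 later arrays were under the level, and with them set to the level the mean of the early arrays was at least 1.94-fold above the later mean. Both early arrays lay above all 4 later ones. In a bulk tissue such as this, fewer cells of a type and less RNA per cell cannot be told apart. In medulla the same difference was -0.14 (SE 0.18, adjusted p = 0.941), and the windows overlapped.

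Uncx encodes a homeodomain transcription factor known for patterning the axial skeleton and expressed in the cap mesenchyme. It had the widest range of the 14 probes after birth. Its RefSeq promoter (GRCm38.p6, chr5:139543648-139543947, plus strand) holds TAATTA at -133 and -30 from the start, shown in capitals, and none of the other letters searched.

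Uncx: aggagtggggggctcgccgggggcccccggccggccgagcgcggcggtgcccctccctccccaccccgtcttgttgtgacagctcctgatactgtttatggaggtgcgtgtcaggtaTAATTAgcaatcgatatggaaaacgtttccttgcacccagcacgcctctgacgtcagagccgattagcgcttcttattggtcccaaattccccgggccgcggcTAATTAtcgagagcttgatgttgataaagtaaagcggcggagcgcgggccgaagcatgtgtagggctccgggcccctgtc

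In cortex the Uncx probe ILMN_1233941 read 10.17 at P0, 10.14 at P2, 8.68 at P4, 8.02 at P6, 7.89 at P8, 8.0 at P10, 7.87 at P20, 7.77 at P30 and 7.95 at P90. In medulla it read 8.82 at P0 and 8.59 at P2, from 8.23 to 8.36 at P4 to P10, and 8.21, 8.14 and 7.83 at P20, P30 and P90. The cortex was level from P0 to P2, was 1.47 lower at P4 than at P2 and 0.66 lower at P6 than at P4, and then stayed near its late mean of 7.86 (SD 0.09, n = 3 ages). The cortex exceeded the medulla by 1.36, 1.56 and 0.44 at P0, P2 and P4, while from P6 to P30 cortex minus medulla ran from -0.47 to -0.23.

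The Uncx midpoint was crossed at 3.44 days in cortex, between P2 and P4. It was 3.09 days on the linear scale and 3.45 days from the mean of P0 and P2, and the last cortex array above the level was that of P4, against P2 for Gdnf. With 1 array per age, the order of these 2 crossings comes with no error estimate. The second Uncx probe, ILMN_1250963, read between 8.05 and 8.42 in both regions with no course in age, so the 2 probes of this gene disagree.

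**Figure D1:**
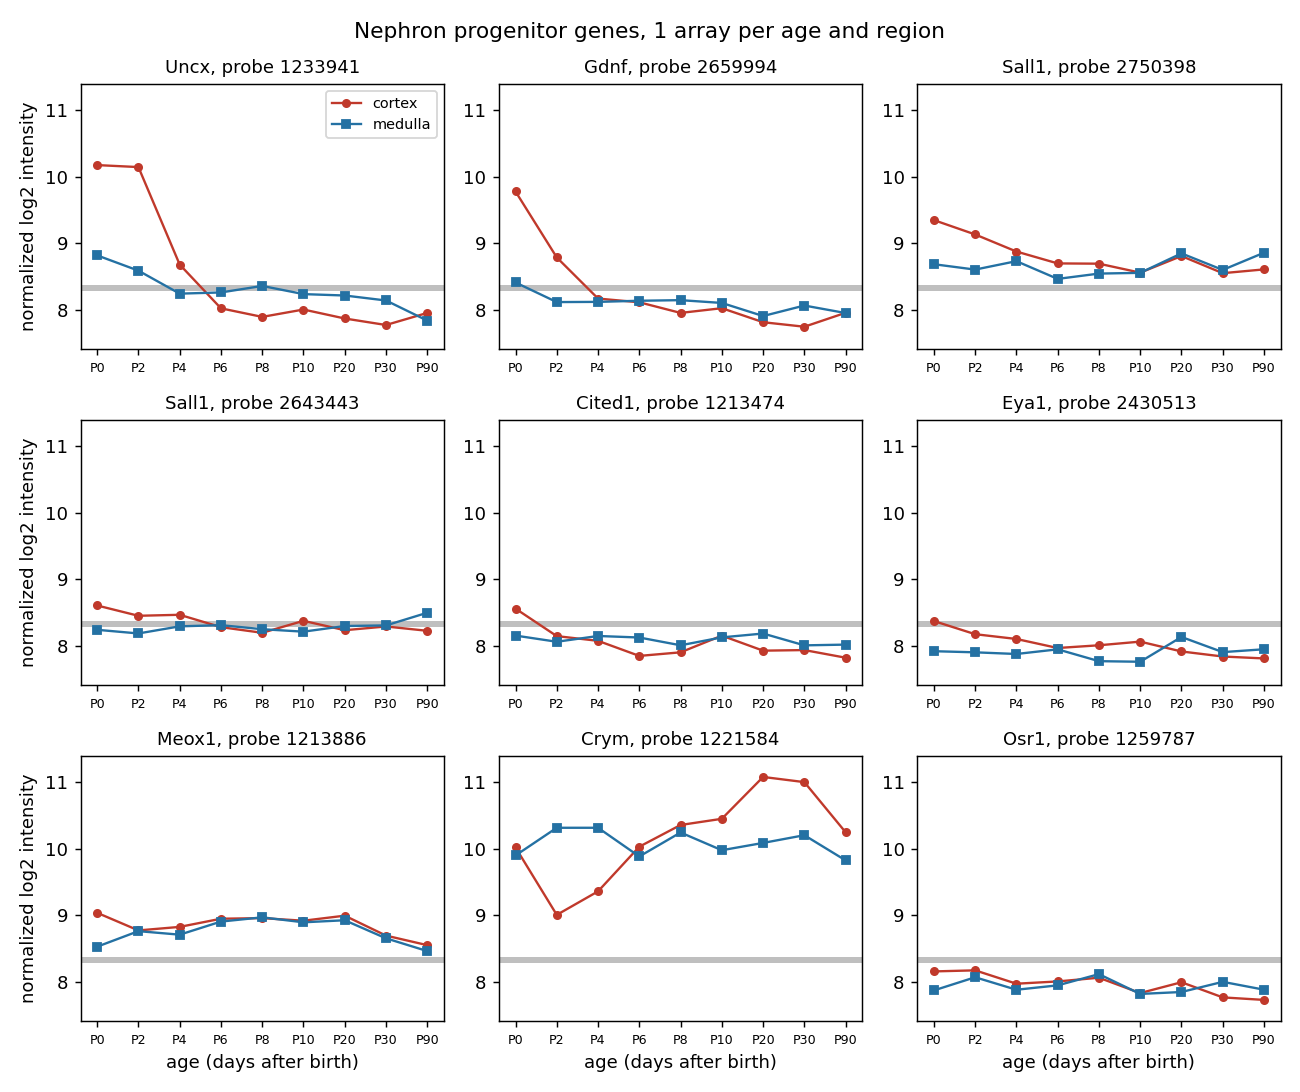
Normalized log2 intensity (vertical axis) of 9 progenitor gene probes at the 9 ages, which are evenly spaced on the horizontal axis, in cortex (red circles) and medulla (blue squares), 1 array per point. The grey band is the range of the level filter, 8.28 to 8.37. Uncx and Gdnf start in cortex at 10.17 and 9.78 and lie under the band from P6 and P4 on, whereas Meox1 and Crym stay above it on every array.

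In cortex Uncx fell by 2.01 on the log2 scale from P0-P2 to P4-P10 (SE 0.16, n = 2 against 4 ages, limma adjusted p = 1.1e-05). Of the 4 later arrays 3 were under the level. With those set to the level, the mean of the early arrays was at least 3.35-fold above the later mean. The lowest early array was 10.14 and the highest later one 8.68. In medulla the difference was -0.43 (SE 0.16, adjusted p = 0.374), with both early arrays, 8.82 and 8.59, above all 4 later ones.

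Sall1 encodes a zinc finger transcription factor of the cap that is required for ingrowth of the ureteric bud. RefSeq lists 3 starts, and the one with the most matches (GRCm38.p6, chr8:89043463-89043762, minus strand) holds GGGCGG or its reverse complement at 4 places, in capitals.

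Sall1: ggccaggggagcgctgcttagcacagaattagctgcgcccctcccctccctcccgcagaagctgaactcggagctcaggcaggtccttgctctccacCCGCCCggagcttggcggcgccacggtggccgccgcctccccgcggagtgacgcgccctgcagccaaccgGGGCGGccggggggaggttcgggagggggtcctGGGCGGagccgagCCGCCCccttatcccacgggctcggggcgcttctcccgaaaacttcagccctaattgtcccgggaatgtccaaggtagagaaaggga

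The Sall1 probe ILMN_2750398 read 9.35, 9.13, 8.87, 8.69, 8.69 and 8.56 in cortex from P0 to P10, and 8.81, 8.55 and 8.60 at P20, P30 and P90. In medulla it read 8.68, 8.60, 8.73, 8.46, 8.54 and 8.55 from P0 to P10, and 8.85, 8.60 and 8.86 at P20, P30 and P90. It was above the level on all 18 arrays. Its P0 cortex reading was 0.69 above the late mean, under the 1 log2 unit asked of a time of loss, which Gdnf and Uncx alone reached, both in cortex. The 2 early cortex arrays were the highest of the 18, and the medulla showed no such start.

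In cortex Sall1 fell by 0.54 (SE 0.11, 1.45-fold, n = 2 against 4 ages, limma adjusted p = 0.00434), with no overlap between the early and later arrays. The call was lost without P0 (-0.43, adjusted p = 0.105) and without P4, P6 and P10, where the estimate was as large (-0.55, adjusted p = 0.056). The dimmer probe of the gene, ILMN_2643443, read 8.60 and 8.45 at P0 and P2 and 8.19 to 8.46 from P4 to P10 in cortex. Its difference was -0.20 (SE 0.08, adjusted p = 0.0912), of the same sign as that of the brighter probe.

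Cited1 encodes a transcriptional cofactor that marks the least committed cap cells. Its probe ILMN_1213474 read 8.56 in the P0 cortex and 8.14 at P2, and from 7.82 to 8.15 at the later ages. In medulla it ran from 8.0 to 8.18. Only the P0 cortex array stood above the level, and with all 46630 probes tested the early difference in cortex was -0.36 (SE 0.10, n = 2 against 4 ages, limma adjusted p = 0.0521).

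Eya1 encodes a transcriptional co-activator with phosphatase activity that is required for the kidney to form. The probe ILMN_2430513 read 8.37, 8.17, 8.10, 7.96, 8.0 and 8.06 in cortex from P0 to P10 and 7.91, 7.84 and 7.81 at P20, P30 and P90. In medulla its readings ran from 7.76 to 8.13. The cortex readings of P0 and P2 were the 2 highest of the 18, but only that of P0 reached the level, and the early difference of -0.24 (SE 0.08, n = 2 against 4 ages) had a limma adjusted p = 0.101 over all 46630 probes. The other 3 Eya1 probes were under the level on every array, with cortex readings from 7.53 to 8.24.

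Osr1 encodes a zinc finger transcription factor of the early kidney mesoderm. Its probe ILMN_1259787 ran from 7.72 to 8.17 in cortex and from 7.81 to 8.11 in medulla, under the level on all 18 arrays. A loss after birth was therefore not detectable for Osr1.

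Meox1 encodes a homeodomain transcription factor known from the somites and used as a cap marker. Its probe ILMN_1213886 was above the level on all 18 arrays, from 8.55 (P90) to 9.04 (P0) with a median of 8.92 in cortex, and from 8.46 (P90) to 8.97 (P8) with a median of 8.76 in medulla. At P0 the cortex was 0.51 above the medulla, and from P2 to P90 the regions lay within 0.12 of each other. The early difference in cortex was 0.0077 (SE 0.13, n = 2 against 4 ages, limma adjusted p = 0.976), and P90 was the lowest age in both regions. From P4-P10 to P20-P90 the difference was -0.17 in cortex (SE 0.12, adjusted p = 0.261) and -0.19 in medulla (SE 0.12, adjusted p = 0.2). Without P20 it was called lower in both, at -0.29 (adjusted p = 0.0242) and -0.31 (adjusted p = 0.0156), and in medulla also with array weights (adjusted p = 0.0258).

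Crym encodes mu-crystallin, a binding protein for thyroid hormone. Its cortex readings were 10.02 at P0, 9.0 at P2, 9.36 at P4, 10.03 at P6, 10.36 at P8, 10.45 at P10, 11.08 at P20, 11.002 at P30 and 10.25 at P90. In medulla they ran from 9.82 to 10.32. Crym thus had its lowest cortex reading at P2, and its highest at P20, when Gdnf and Uncx were under the level.

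Crym rose in cortex from P4-P10 to P20-P90 by 0.73 (SE 0.27, 1.66-fold, n = 4 against 3 ages, limma adjusted p = 0.0411). The P90 reading lay within the range of P4-P10. The call was lost without P4 (adjusted p = 0.137), P6 (0.0812), P20 (0.145) or P30 (0.157), and without P4, P6 and P10 together (0.527). The early difference in cortex, 0.54 (SE 0.31), was not called (adjusted p = 0.257). It was 1.04 without P0 and 0.029 without P2, and with windows of P0-P4 and P6-P10 it was 0.82 and called higher (adjusted p = 0.0208).

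Over the 7 probes, 3 were called lower in cortex from P0-P2 to P4-P10 and 0 higher, against 10.3% of all tested probes called lower and 7.32% called higher. The Gdnf probe was above the level only in the P0 and P2 cortex and the P0 medulla, and so was tested through its early arrays. The members were also chosen with earlier results of these data known. The count is therefore no independent support for a fall, and the same limit holds for the counts between regions below. Over the same ages, 6 of the 8 glomerular and convoluted tubule probes rose in cortex (median 1.02), among them Slc5a2, a glucose transporter gene of the proximal tubule, by 2.11 (SE 0.40, limma adjusted p = 0.00314), and the part of this in the members' falls was not tested. The members' median difference was -0.20, beside 0.0045 for all 14866 probes. In medulla 0 of 7 were called in either direction by limma, where 0.101% of all tested probes were called lower, and 1 member, Uncx, was under an unadjusted p of 0.05. The medulla median was -0.0016, beside -0.0011 for all probes.

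From P4-P10 to P20-P90 the 7 probes in cortex had 1 call, Crym higher, where 22.1% of all probes were called higher, and 0 lower, where 23.1% were called lower. Gdnf and Uncx differed by -0.23 (SE 0.15) and -0.29 (SE 0.14), with adjusted p = 0.249 and 0.12. In medulla 0 of 7 were called by limma, with 23.4% of all probes called lower and 0 members under an unadjusted p of 0.05.

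**Figure D2:**
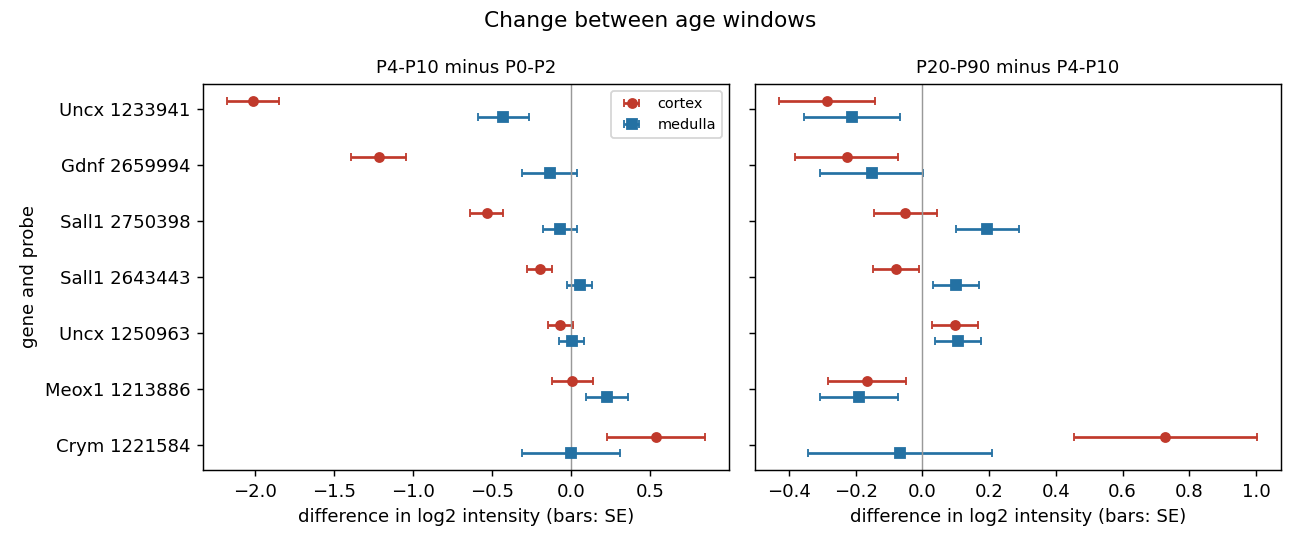
Difference in log2 intensity (horizontal axes, bars are SE) between windows of age for the 7 tested probes, in cortex (red circles) and medulla (blue squares). The left panel shows P4-P10 minus P0-P2, with Uncx at -2.01, Gdnf at -1.22 and the brighter Sall1 probe at -0.54 in cortex, and the right panel P20-P90 minus P4-P10, with Crym at 0.73 in cortex.

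The regions were then compared at the same ages, with age as a block. At P0 and P2, 4 of the 7 probes were lower in medulla, where 6.55% of all tested probes were called lower, and 0 were higher. Medulla minus cortex was -1.46 for Uncx (SE 0.18, n = 2 ages per region, limma adjusted p = 0.000468) and -1.02 for Gdnf (SE 0.13, adjusted p = 0.000783), whose medulla reading was under the level at P2. It was -0.60 for the brighter Sall1 probe (SE 0.08, adjusted p = 0.00104) and -0.32 for the dimmer one (SE 0.09, adjusted p = 0.0385), which was not called without P0 (adjusted p = 0.302), P2 (0.242) or P6 (0.053), or with all 46630 probes tested (0.0689). Eya1 probe ILMN_2430513 was -0.36 (SE 0.09, adjusted p = 0.0275 in that same test of all probes). Crym was the 1 tested probe with a positive difference, 0.59 (SE 0.32, adjusted p = 0.268), which came from P2, where the medulla was 1.31 higher, and not from P0, where it was 0.12 lower.

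Over all 9 ages 0 of the 7 probes differed between the regions by limma, against 10.7% of all tested probes lower in medulla, and 0 were under an unadjusted p of 0.05. For Uncx the estimate was -0.20 (SE 0.21, adjusted p = 0.513), with cortex higher at 4 of 9 ages.

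Whether the early change itself differed between regions was tested as an interaction. It was larger in cortex for 3 probes, where 6.75% of all tested probes were called in that direction. In the opposite direction, where 7.02% of all tested probes were called, lay all 8 glomerular and convoluted tubule probes (median -1.08) and all 3 tested liver probes (median -0.83), and their part in the result was not tested. Medulla minus cortex of the early change was 1.58 for Uncx (SE 0.21, limma adjusted p = 0.00784), 1.08 for Gdnf (SE 0.16, adjusted p = 0.00812) and 0.46 for Sall1 (SE 0.10, adjusted p = 0.0153), with 2 and 4 ages per window and region. Without P0 the call was lost for Gdnf (adjusted p = 0.0597) and Sall1 (0.13), without P2 for Uncx (0.0919) and Sall1 (0.103), and without P4, P6 and P10 for Sall1 (0.0913, at an estimate of 0.45). For Sall1 it was also lost without age as a block (limma adjusted p = 0.0937). With windows of P0-P4, P6-P10 and P20-P90 the Sall1 estimate was 0.32 and not called (adjusted p = 0.0961).

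The partners of the cap were read from lists of genes. The lists' counts in the early change in cortex stand beside 10.3% of all tested probes called lower and 7.32% higher. These lists, too, were chosen with earlier results of these data known, so their counts are no independent support for a fall. The GDNF receptors and other ureteric tip genes were lower over the same ages: of 6 tested probes, 5 fell in cortex from P0-P2 to P4-P10, with a list median of -0.94, beside 0.0045 for all probes. The receptor gene Ret read 9.05 and 8.80 at P0 and P2 and from 7.94 to 8.14 at P4 to P10, and fell by 0.88 (SE 0.10, limma adjusted p = 0.000163). Its co-receptor gene Gfra1 fell by 1.0 (SE 0.17, adjusted p = 0.00183), and Etv4, a transcription factor induced by Ret signalling, by 1.19 (SE 0.08, adjusted p = 1e-06). Ligand, receptor, co-receptor and target thus all had early cortex arrays above all P4-P10 cortex arrays. The Ret probe was above the level only in the P0 and P2 cortex, and so was tested through its early arrays. Like that of Gdnf, its separation is therefore no independent support for a fall. In medulla 0 of 6 tip probes were called, where 0.101% of all tested probes were called lower and 0.074% higher.

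Of genes of cap cells that are committing to a nephron, 13 of 19 tested probes fell in cortex and 0 rose, with a median of -0.67. Hey1, a Notch target, fell by 1.97 (SE 0.24, adjusted p = 0.00033), and Lhx1, a transcription factor of the renal vesicle, by 1.94 and 1.08 at its 2 probes. Both genes read higher in the P2 than in the P0 cortex, at 10.98 against 10.53 for Hey1 and 11.65 against 10.90 for the brighter Lhx1 probe, whereas Gdnf was lower at P2.

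Among 11 tested probes of other genes active in progenitors, 2 fell in cortex and 0 rose, with a median of -0.15, a count close to the share of all probes: Tmem100, a membrane protein gene, fell by 1.07 (SE 0.14, adjusted p = 0.000523) and Wt1, also a podocyte gene, by 1.48 (SE 0.36, adjusted p = 0.0113). The Wt1 cortex readings went down over the whole series, from 11.98 at P0 to 9.70 at P10 and 8.58 at P90. Of the stroma around the cap, 4 of 11 probes fell, among them Meis1 (-0.96, SE 0.18, adjusted p = 0.00331), and 3 rose, among them the matrix gene Dcn (0.93, SE 0.23, adjusted p = 0.0129), with a median of -0.25. Of 11 cell cycle probes 2 fell, again close to the share of all probes: Top2a by 1.04 (SE 0.19, adjusted p = 0.00313) and Plk1 by 0.74 (SE 0.15, adjusted p = 0.00401), with a median of -0.41. Of the same 11, 9 were lower in medulla at P0 and P2, where 6.55% of all tested probes were. In none of these lists was a probe called in the early change in medulla by limma. There only 0.101% of all tested probes were called lower and 0.074% higher, so the lack of calls is not particular to these genes.

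**Figure D3:**
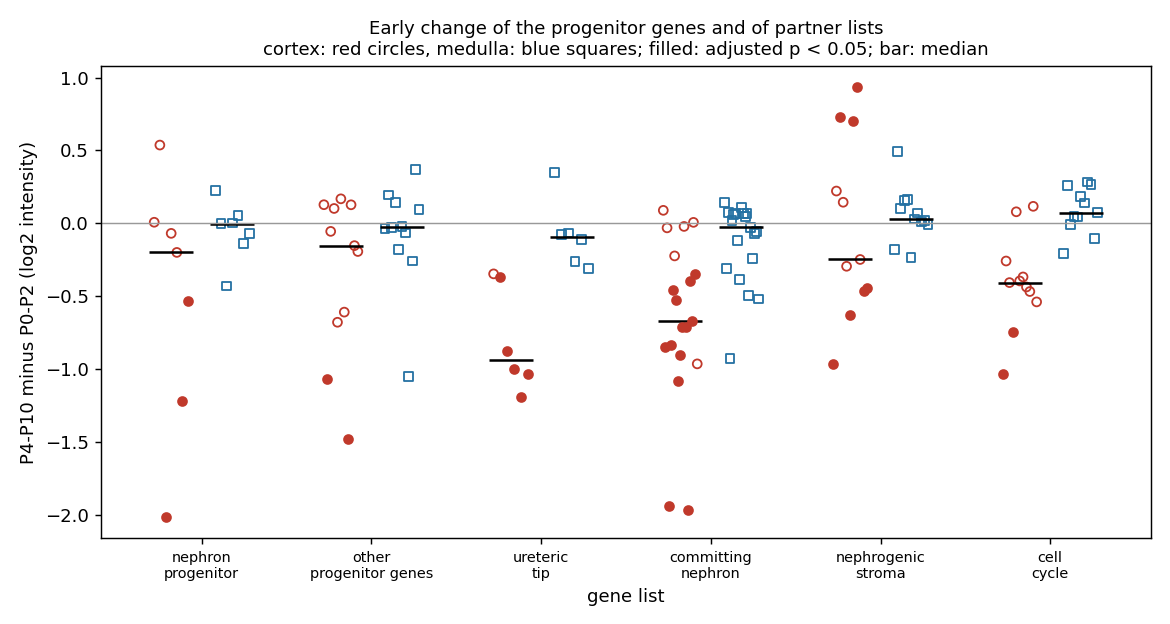
Early change, P4-P10 minus P0-P2 in log2 intensity (vertical axis), of each tested probe of the progenitor genes and of 5 lists of related genes, in cortex (red circles) and medulla (blue squares). Filled symbols passed the limma test at an adjusted p of 0.05 and black bars are medians. Filled symbols occur in cortex alone, 13 of 19 in the committing nephron list and 5 of 6 in the ureteric tip list. In medulla only 0.101% of all tested probes were called lower and 0.074% higher.

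The genes with a course most like that of Uncx were ranked by Pearson's r over the 18 arrays among 9308 other named genes. Six2 was the intended reference, and Uncx took its place after the data had been seen. The highest were Hey1 (r = 0.969), the cartilage collagen gene Col2a1 (0.958), Gldn (0.957), Etv4 (0.953) and the neural and renal progenitor transcription factor gene Sox11 (0.947), followed by Sf1 (0.946), Cbln4 (0.946), Septin3 (0.940), Vars (0.935) and Sncaip (0.933). The lowest were Ppt1 (-0.902), B2m (-0.900), Klk1 (-0.896), Nuak2 (-0.884) and Susd6 (-0.882). All points share the age scale, and with the P0 and P2 cortex arrays left out r for the 10 highest ran from 0.726 to 0.901 over 16 arrays. Col2a1, Cbln4 and Septin3 were above the level only in the P0 and P2 cortex, and so entered the ranking through arrays where Uncx was high. Over the 16 arrays their r used readings under the level. Ranked by Spearman's rho, the 10 highest shared 0 genes with this list.

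Among the members, Gdnf had r = 0.908 with Uncx over the 18 arrays and 0.840 without the P0 and P2 cortex arrays. The brighter Sall1 probe had 0.762 and 0.0319, so over both regions together its likeness to Uncx depended on those 2 arrays. Cited1 had 0.723 and 0.559, Meox1 0.160 and -0.0768, and Crym -0.611 and -0.581. Without the P0 and P2 cortex arrays, Gdnf was above the level only in the P0 medulla, at 8.41, and Cited1 on no array. For Gdnf and Cited1 the second r thus used readings almost all under the level. Over the 9 cortex arrays alone, r with Uncx was 0.936 for the brighter Sall1 probe and 0.913 for Gdnf.

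**Figure D4:**
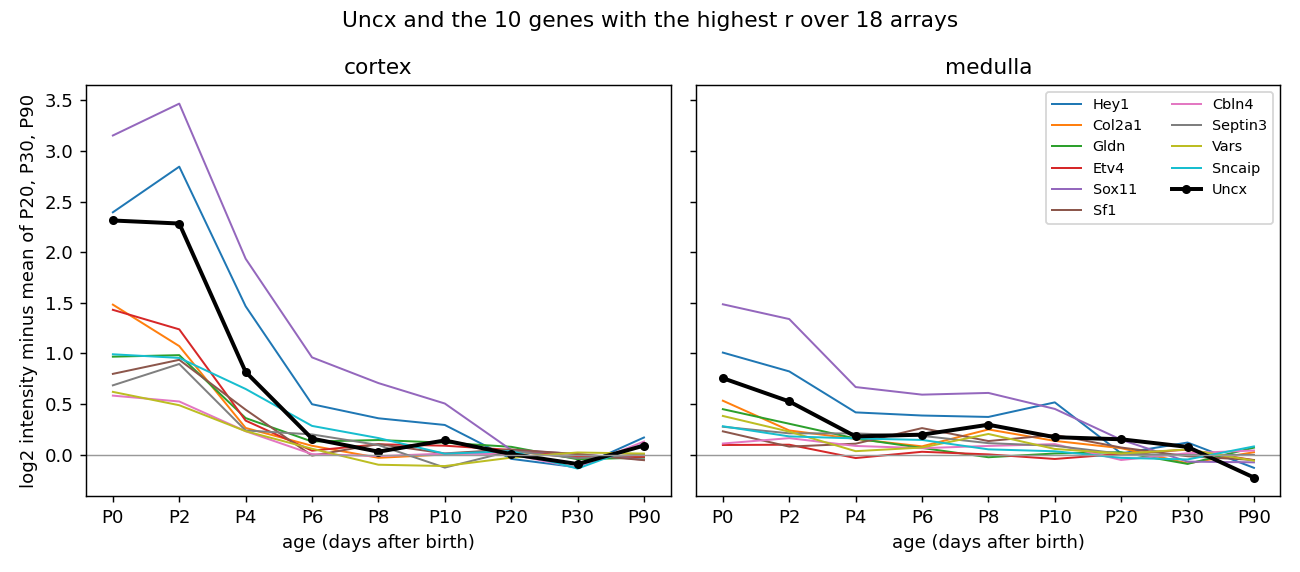
Log2 intensity minus the mean of P20, P30 and P90 (vertical axis) at the 9 ages, evenly spaced, for Uncx (black) and the 10 genes with the highest r to it, in cortex (left) and medulla (right). In cortex Uncx starts at 2.31 above its late mean and is down to 0.82 at P4, and in medulla it starts at 0.76.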

How the data were processed

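Illumina bead arrays measured RNA of the cortex and medulla of male CD1 mice at 9 ages, 1 array of 4 pooled animals per age and region. The deposited log2 intensities were normalized by the authors with lumi and limma, per the labels' design text. Background correction, transformation and normalization method are not given in the sources used here. Differences between dim probes may be compressed, which was not measured. Gene names came from the platform annotation, in which 29975 probes carry 1 symbol, 10 several and the rest none. A second table of 36 scanner columns, whose names match no sample, was not used.

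Each probe was tested with limma 3.58.1 (R 4.3.3), with Benjamini-Hochberg adjustment over 14866 probes at 0.05. Age changes used 6 cells of region by window (12 residual degrees of freedom). Region differences used age as a block (6 degrees of freedom by window, 8 over all ages); the pairing is by age in the labels. The fit was tested on simulated data. Named genes were all members, up to 4 called probes with the smallest adjusted p of each other list, and the 10 most and 5 least like Uncx, the replacement for Six2. The members and lists were chosen with earlier results of these data known. Alternatives were other filters, array weights, a further quantile normalization, an intensity trend, the brightest probe per gene, other windows, each region alone, no block, each age left out and, added after seeing the data, P4, P6 and P10 left out. The number of arrays limits the precision.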

Additional observations from a re-analysis of the deposited data

Results flagged for a closer look

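For 3 probes the early change differed between the regions in a test of that difference, with the drop in cortex the larger. Early change in medulla minus early change in cortex was 1.58 on the log2 scale for Uncx probe ILMN_1233941 (limma adjusted p = 0.00784), 1.08 for Gdnf probe ILMN_2659994 (adjusted p = 0.00812) and 0.46 for Sall1 probe ILMN_2750398 (adjusted p = 0.0153). The early windows hold 2 ages per region. The Sall1 call was lost with windows of P0-P4, P6-P10 and P20-P90, and without age as a block. Without P0 the calls of Gdnf and Sall1 were lost, and without P2 those of Uncx and Sall1. The brown fat gene Ucp1 had its lowest readings at P0 and P2 in both regions, at most 8.32, and its part in these differences was not tested. A fit without P4, P6 and P10 cannot decide this, because it keeps P8, where Ucp1 read 9.53 in cortex and 9.55 in medulla.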

How the results depend on the processing

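The early falls of Uncx and Gdnf in cortex were called under all 18 alternatives run, with changes from -2.27 to -1.70 for Uncx and from -1.72 to -0.72 for Gdnf, as were their differences between regions at P0 and P2. Of the counts of called members, the early change in cortex went from 3 to 5 with windows of P0-P4, P6-P10 and P20-P90 and to 2 to 4 with an age left out. The 5 calls with those other windows were 4 lower and 1 higher, Crym. The early change in medulla went from 0 to 1 with array weights. The later change in cortex, 1 call, went to 0 with no filter, with the other windows, with the region fitted alone and without P4, P6 and P10, to 3 with array weights, and to between 0 and 2 with an age left out. The later change in medulla, 0 calls, went to 1 with array weights and to between 0 and 1 with an age left out. The difference in early change between regions, 3 calls, ran from 1 to 3 with an age left out, with 1 call without P0 and 1 without P2. The Gdnf time of loss of 1.93 days became 2.62 days with the start taken from the mean of P0 and P2. With the added threshold of 0.5 log2 unit for a start above the late mean, 6 profiles in place of 2 had a time of loss. Of the 10 genes most like Uncx, 4 were shared with the list from the cortex arrays alone and 0 with the list from Spearman's rho. With no replicate block, that is without pairing the regions by age, 3 in place of 4 members differed between regions at P0 and P2, 2 in place of 3 in the early change, and 0 over all ages. No call changed sign under an alternative. Calls over all probes moved more: for the early change in cortex, 2623 in the reported fit, 451 without P0, 487 without P2 and 4375 with array weights; in medulla, 26 in the reported fit, from 1 to 134 with an age left out and 551 with array weights; for the difference between regions in the early change, 2047 in the reported fit, 49 without P0 and 8 without P2. Fewer arrays enter these last fits. Probes under the level give no measure of a loss.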
